A study of Mus musculus with 4 samples.

Results

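The insulin receptor signalling axis was followed in the fetal brain of mice whose mothers were short of food, through 10 listed genes. These are the insulin receptor Insr, the receptor adaptors Irs1 and Irs2, the kinases Akt1 and Akt2, the transcription factors Foxo1 and Foxo3, the kinase Mtor with its inhibitor Tsc2, and Txnip. The members were taken by gene symbol, with the older symbols Foxo3a and Frap1 accepted. The rule itself uses no measured value. The arrays carried 16 probes for 9 of the 10 genes, on 25 spots of each array, out of 41174 probes on 43379 spots. Irs2 was not analysed here, because no probe under that symbol was found.

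When insulin or an insulin-like growth factor binds its receptor, the receptor's kinase phosphorylates the Irs adaptors, which recruit PI3 kinase and through it switch on Akt. Akt keeps FoxO transcription factors out of the nucleus, and it relieves the brake that Tsc2 puts on the mTOR complex that drives protein synthesis. When the hormone signal falls, nuclear FoxO is known to turn on genes of the fasted state, and Txnip, a thioredoxin-binding protein that lowers glucose uptake, is a known target of both FoxO and glucose-sensing factors. Much of this control works through phosphorylation, which RNA arrays do not measure.

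All fetuses were C57BL/6J mice. Dams of the food deprivation group (FD) went without food overnight on gestation day 17. Dams of the food restriction group (FR) received 50% of the chow that controls ate, from gestation day 10 to 17, and their fetuses were delivered by caesarean section on gestation day 18. The collection day of the FD fetuses is not spelled out in the series text. Control dams ate ad libitum. Whole-brain RNA of 5 fetuses was pooled per group, and the labels give neither litter nor sex. Each treated pool was hybridised against a control pool on 2 arrays with exchanged dyes, with the treated pool labelled Cy5 on array 1 and Cy3 on array 2. It is not stated whether FD and FR were set against the same control RNA. The control signals were not alike: 7 skeletal muscle markers averaged 10.07 (log2) in the control of FD and 8.37 in the control of FR. A difference between the FD and FR ratios can therefore also carry a difference between controls. A dye swap of the same 2 RNA pools is 1 replicate, so each comparison has n = 1 and no test between conditions was possible. The pair of values given for each probe shows how far a measurement moved between dye orientations, and says nothing of the spread between litters or fetuses.

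Between 71.4% and 85.3% of the spots were well above background per channel and array. The 6 neuronal markers (Tubb3, Map2, Stmn2, Syt1, Snap25 and Dcx) were all measured, at a mean log2 signal of 11.27 in FD, 11.36 in its control, 11.22 in FR and 11.33 in its control, each gene read by the brightest probe measured in both groups. Of 5 progenitor markers, 2 (Nes and Pax6) had such a probe, and they averaged 9.47, 9.61, 9.71 and 9.67 in the same order. Read within each group, 3 progenitor markers were measured in FD, with a median log2 ratio to control of -0.10, and 4 in FR, with -0.17. In FR Hes5 gave -0.55 and -0.33 on arrays 1 and 2 and Fabp7 0.21 and -0.79. Pax6 gave 0.21 and 0.06 there, and Nes -0.16 and 0.05. Markers of tissues outside the brain were present. For skeletal muscle, brown fat and pituitary the control of FD stood above all other pools, so the low FD ratios go with a high control. Whether the FD pool or its control departed from the usual level was not tested. The 7 skeletal muscle markers averaged 7.99 in FD, against 10.07 in its control, and 8.38 in FR, against 8.37 in its control. Of these, 7 of 7 were at least 1.5-fold lower in FD on both arrays and 0 of 7 in FR. The brown fat markers averaged 7.35 in FD, against 8.63 in its control, with 3 of 5 measured members lower, while the FR pool stood at 7.31 and its control at 7.39. In FR 1 of 5, Cidea, was at least 1.5-fold lower on both arrays, at log2 ratios of -0.67 and -0.69, and 3 were above 0 on both. The 4 measured pituitary markers stood at 7.26 in FD and 7.98 in its control, and at 7.13 in FR and 7.16 in its control. The 3 measured liver markers (Alb, Ahsg and Afp) ran the other way, at 8.28 in FD against 7.59 in its control, and at 8.24 in FR against 7.78 in its control. Choroid plexus markers (8.25, 8.25, 8.21 and 8.19 in that order) and endothelial markers (8.47, 8.58, 8.45 and 8.52) were nearly level. Of the 6 blood markers 1, S100a9, had a usable probe, at 8.87 in FD, 8.99 in its control, 10.01 in FR and 8.96 in its control. In such pools, fewer cells of a type and less RNA per cell cannot be told apart.

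The probes that bear on the results below are of 60 bases, and 5 of them are shown because each is one of a pair of probes whose readings of the same gene are set side by side. Their positions are in build mm9 as the arrays' own annotation gives them. The Akt1 probe spans 9267 bases, the Akt2 probe 141 and the Txnip probe 175, so these 3 bridge introns and read spliced RNA. Exon and UTR annotation of that build was not used here.
Insr A_52_P6490, chr8:3159473-3159532, minus strand: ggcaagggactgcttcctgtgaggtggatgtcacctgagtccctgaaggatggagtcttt
Akt1 A_52_P418014, chr12:113900509-113909775, minus strand: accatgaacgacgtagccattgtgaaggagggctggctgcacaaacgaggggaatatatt
Akt2 A_51_P408044, chr7:28421973-28422113, plus strand: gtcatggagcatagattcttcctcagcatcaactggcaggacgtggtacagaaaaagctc
Foxo1 A_51_P138044, chr3:52150183-52150242, plus strand: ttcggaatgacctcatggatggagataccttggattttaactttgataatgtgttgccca
Txnip A_52_P420792, chr3:96363085-96363259, plus strand: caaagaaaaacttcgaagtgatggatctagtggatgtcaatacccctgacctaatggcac

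None of the measured probes of the axis changed by 1.5-fold in either group. A probe counted as measured when both pools gave a signal well above background on each array of the dye swap, and as changed when it moved by at least 1.5-fold the same way on both. In FD, 13 probes of 7 genes were measured, and 0 of the 13 changed, where 0.194% of all 25779 measured probes did. In FR, 14 probes of 8 genes were measured, and 0 of the 14 changed, where 1.05% of 25987 did. With backgrounds this low, a count of 0 among so few probes is near the background. A limit of 1.2-fold also left 0 of 13 probes in FD and 0 of 14 in FR, beside 2.11% and 7.63% of all measured probes.

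The direction was shared by both arrays for 5 of 13 probes in FD and 8 of 14 in FR. In FD, 2 member probes were above 0 on both arrays and 3 below 0 on both, with opposite signs for the other 8; over all measured probes 24.1% were above 0 on both and 25.4% below. In FR, 7 member probes were above 0 on both arrays and 1 below, with opposite signs for 6, beside 28.1% and 27.6% of all measured probes. The median log2(FD/control) over the 13 probes was -0.01, within a range of -0.13 to 0.34, and the median log2(FR/control) over the 14 was 0.05, within a range of -0.22 to 0.46. The upper end of both ranges was a Txnip probe. The arrays' difference divided by 2 had an SD of 0.12 on the log2 scale in FD and 0.13 in FR over all measured probes, so most member means lay within that scatter.

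**Figure D1:**
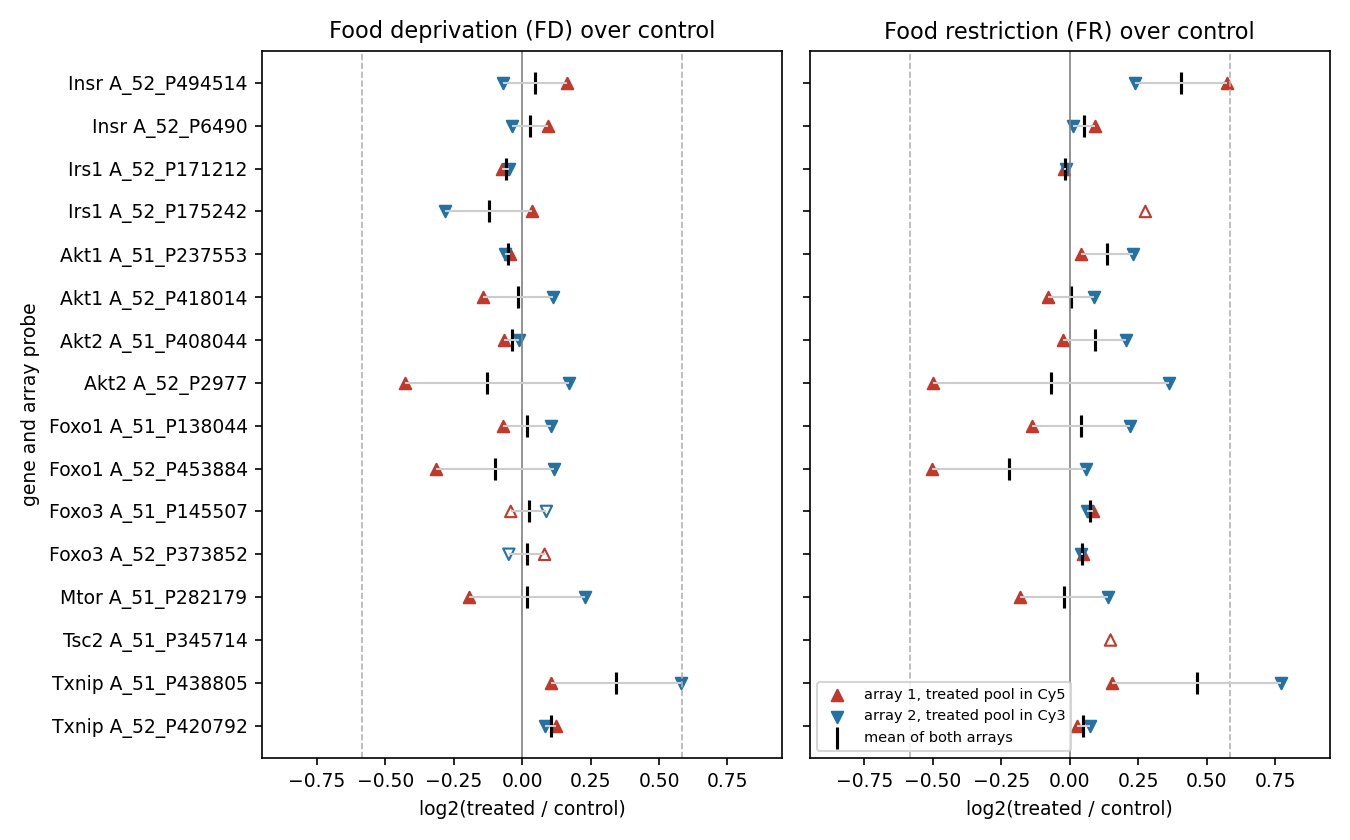
Log2 ratio of each treated pool over its control pool (horizontal axis) for the 16 probes of the axis (one line of points each), with FD in the left panel and FR in the right. Points are the single arrays of a dye swap the black bar is their mean, hollow points are probes that did not count as measured, and dashed lines mark 1.5-fold. The brighter Txnip probe, at means of 0.34 in FD and 0.46 in FR, and the brighter Insr probe in FR, at 0.41, lie farthest from 0.

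Insr, the receptor tyrosine kinase for insulin, was read by a pair of probes. The brighter one, A_52_P494514 (chr8:3151667-3151726, minus strand), gave log2(FR/control) of 0.57 on array 1 and 0.24 on array 2, a mean of 0.41 or 1.32-fold, and log2(FD/control) of 0.16 and -0.07, a mean of 0.05 or 1.03-fold. Its log2 signal was 9.07 and 8.95 in the FR pool, against 8.50 and 8.71 in the control of FR, so the FR values lay above both control values. In FD the signals were 8.93 and 8.77, against 8.77 and 8.84 in the control of FD, and these overlapped. A mean at least as far from 0 was seen for 5.37% of all measured probes in FR and for 64.2% in FD. The second probe, A_52_P6490, was dim, at log2 signals of 6.50 and 6.55 in FR, against 6.41 and 6.54 in its control. It gave 0.09 and 0.01 in FR and 0.10 and -0.04 in FD, so it did not carry the higher FR value. For such dim spots the added offset of the background correction pulls ratios towards 0, and the scanner software's own ratio, which has no such offset, averaged 0.15 in FR. For the brighter probe that software ratio averaged 0.49 in FR, and the normexp correction fitted on all spots gave 0.30. That last setting keeps the spots of a patch of very bright background on array 2 of FR. It put array 2 at 0.04, against 0.24, and left array 1 at 0.57. Skeletal muscle and fat also express Insr. Their marker means were close to the control in FR and below the control in FD, where that control was the highest pool. Their part in the FD value was not tested.

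The difference between the groups was the widest of the axis at this Insr probe. FD minus FR was -0.41 on array 1 and -0.31 on array 2, a mean of -0.36, and 3.47% of all probes measured in both groups had a difference at least as large. It was 1 of 12 member probes that differed by 1.2-fold on both arrays, where 4.72% of 23387 probes did, and 0 of 12 differed by 1.5-fold, where 0.295% did. Part of the difference sat in the controls, since the control of FD exceeded the control of FR by 0.20 in log2 signal at this probe, while the FD pool was 0.16 below the FR pool. Over the 12 member probes FD minus FR had a median of -0.03 and ran from -0.36 to 0.12.

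Irs1 is the docking protein that couples the receptor to PI3 kinase. Its bright probe, A_52_P175242 (chr1:82229692-82229751, minus strand), had log2 signals of 12.14 and 11.93 in FD, against 12.10 and 12.21 in the control of FD, and ratios of 0.04 and -0.28 with a mean of -0.12. In FR, array 1 gave 0.28, and the spot on array 2 was marked as an outlier by the scanner software. With such spots kept, array 2 gave -0.17 and the FR mean was 0.05. The dim probe, A_52_P171212 (chr1:82233564-82233623, minus strand), was below 0 on all arrays, at -0.07 and -0.05 in FD and -0.02 and -0.01 in FR. These values are small, and on array 1 of FR both channels of this spot were brighter, at 7.41 and 7.43, than on the other arrays, where they lay between 6.50 and 6.71.

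Akt1 and Akt2 encode the kinases that relay the signal, Akt1 being broadly linked to growth and Akt2 to glucose handling. The Akt1 probe A_51_P237553 (chr12:113892079-113892138, minus strand) was printed on 10 spots and was the brightest of the axis, at 13.27 and 13.16 in FD, against 13.32 and 13.22 in its control, and at 13.35 and 13.62 in FR, against 13.31 and 13.39 in its control. The ratios were -0.04 and -0.06 in FD, a mean of -0.05, and 0.04 and 0.23 in FR, a mean of 0.14. Many of its spots were marked as outliers, which left 4, 4, 6 and 1 of the 10 on array 1 and 2 of FD and array 1 and 2 of FR. With all 10 spots kept, the means ± SD over spots were 0.10 ± 0.14 and -0.06 ± 0.10 in FD and 0.13 ± 0.12 and 0.03 ± 0.10 in FR, and the FD mean of 0.02 had the other sign. The spread between copies of one probe on one array was close to the size of the Akt1 ratios.

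The second Akt1 probe, A_52_P418014, gave -0.14 and 0.11 in FD and -0.08 and 0.09 in FR, with means of -0.01 and 0.00. The Akt2 probe A_51_P408044 gave -0.07 and -0.01 in FD and -0.02 and 0.21 in FR, with means of -0.04 and 0.09. The brighter Akt2 probe, A_52_P2977 (chr7:28423859-28423918, plus strand), had opposite signs on the 2 arrays of both groups, at -0.43 and 0.17 in FD and at -0.50 and 0.36 in FR. Its means of -0.13 and -0.07 are far smaller than its single-array values.

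Foxo1 and Foxo3 are the transcription factors that Akt restrains. The brighter Foxo1 probe, A_51_P138044, gave -0.07 and 0.11 in FD and -0.14 and 0.22 in FR, with means of 0.02 and 0.04. The other, A_52_P453884 (chr3:52153289-52153348, plus strand), gave -0.31 and 0.11 in FD and -0.50 and 0.06 in FR, with means of -0.10 and -0.22. Its FR mean was the lowest of the axis, and 19.0% of all measured probes in FR lay at least as far from 0. The Foxo3 probes A_51_P145507 (chr10:41905752-41905811, minus strand) and A_52_P373852 (chr10:41900547-41900606, minus strand) were barely above background, at log2 signals between 6.15 and 6.44 over all pools. In FR they gave 0.08 and 0.06 for the first and 0.05 and 0.04 for the second. In FD neither was measured, and the array values lay between -0.05 and 0.09.

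Mtor, the kinase at the core of both mTOR complexes, was read by A_51_P282179 (chr4:147931250-147931309, plus strand), named Frap1 on the array. It had log2 signals of 9.91 and 10.08 in FD, against 10.10 and 9.85 in its control, and of 9.98 and 10.08 in FR, against 10.16 and 9.94 in its control. The ratios were -0.19 and 0.23 in FD and -0.18 and 0.14 in FR, so the treated pools were lower on array 1 and higher on array 2, and the means were 0.02 and -0.02. Tsc2, the GTPase-activating protein that holds mTOR complex 1 in check, had 1 probe, A_51_P345714 (chr17:24732882-24732924), whose spot was marked as an outlier on 3 of the 4 arrays. The remaining array, array 1 of FR, gave 0.15. With marked spots kept the ratios were 0.19 and -0.24 in FD and 0.15 and -0.10 in FR, with means of -0.03 and 0.03.

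Txnip was the member with the largest mean ratio in each group. Its bright probe, A_51_P438805 (chr3:96365147-96365206, plus strand), had log2 signals of 10.32 and 10.49 in FD, against 10.22 and 9.91 in the control of FD, and of 10.39 and 10.74 in FR, against 10.24 and 9.96 in the control of FR. The treated signals lay above both control signals in each group. The ratios were 0.11 and 0.58 in FD, a mean of 0.34 or 1.27-fold, and 0.15 and 0.77 in FR, a mean of 0.46 or 1.38-fold. A mean at least as far from 0 was seen for 2.3% of measured probes in FD and 3.73% in FR. In both groups the higher value came from array 2, and the value of array 1 was close to the SD of the dye-swap scatter (0.12 in FD and 0.13 in FR). The arrays' difference divided by 2 was -0.24 in FD and -0.31 in FR. An offset of the dye orientation cancels in the mean, while scatter of a single array does not, and the 2 were not told apart here.

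The second Txnip probe, A_52_P420792, was dim, at 6.72 and 6.70 in FD, against 6.59 and 6.62 in its control, and at 6.49 and 6.47 in FR, against 6.46 and 6.39 in its control. Its ratios were above 0 on all arrays, at 0.12 and 0.08 in FD and 0.03 and 0.07 in FR, with means of 0.10 and 0.05. The scanner software's ratio for this probe averaged 0.33 in FD and 0.34 in FR, beside 0.36 and 0.48 for the bright probe. Its single arrays gave 0.22 and 0.43 in FD and 0.07 and 0.60 in FR. Such ratios of dim probes can differ widely between arrays, as for Insr A_52_P6490 at 0.40 and -0.37 in FD. With normexp fitted on all spots the bright probe's FR mean was 0.21, against 0.46. That setting keeps the spots of a patch of very bright background on array 2 of FR. The value of array 2 was then 0.27, against 0.77, while array 1 stayed at 0.15. The liver markers Alb, Ahsg and Afp were also above 0 on both arrays in both groups. Muscle and brown fat markers were on average lower in FD than in its control, the pool in which they were highest. The part of these tissues in the Txnip values was not tested.

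The Txnip promoter is shown because Txnip is the one member whose 2 probes lay above 0 on every array, and because it is a known target of FoxO and of glucose-sensing factors. The window runs from 250 bases before to 50 after the annotated start, from RefSeq on GRCm38.p6, chr3:96557707-96558006, plus strand. Capitals mark matches to GTAAACA (a FoxO recognition motif), to CCAAT, and to the carbohydrate response element of Txnip. That element was searched as 2 copies of CACGAG with 5 bases between them. All patterns were searched on either strand and with no overlaps.
Txnip promoter: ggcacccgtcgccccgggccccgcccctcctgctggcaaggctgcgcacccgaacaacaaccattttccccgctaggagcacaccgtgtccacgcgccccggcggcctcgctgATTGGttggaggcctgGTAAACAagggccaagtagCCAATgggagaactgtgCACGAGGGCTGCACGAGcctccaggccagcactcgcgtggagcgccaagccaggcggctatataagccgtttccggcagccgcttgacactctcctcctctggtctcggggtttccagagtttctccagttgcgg
GTAAACA was found in 3.65% of 32851 mouse promoters of the same length and CCAAT in 37.4%. The response element was searched in the form it has in Txnip, so the match there was set in advance. That exact form was in 1 promoter, that of Txnip, and elements of other genes that differ from it were not searched. The matches began at -121 for GTAAACA, -85 for the response element, and -137 and -102 for CCAAT, counted from the start site. Among the promoters of the axis, 9 of the 10 genes had an entry, and apart from Txnip only 1 of the Akt1 promoters held GTAAACA, at -161. A match describes the letters and shows no binding.

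**Figure D2:**
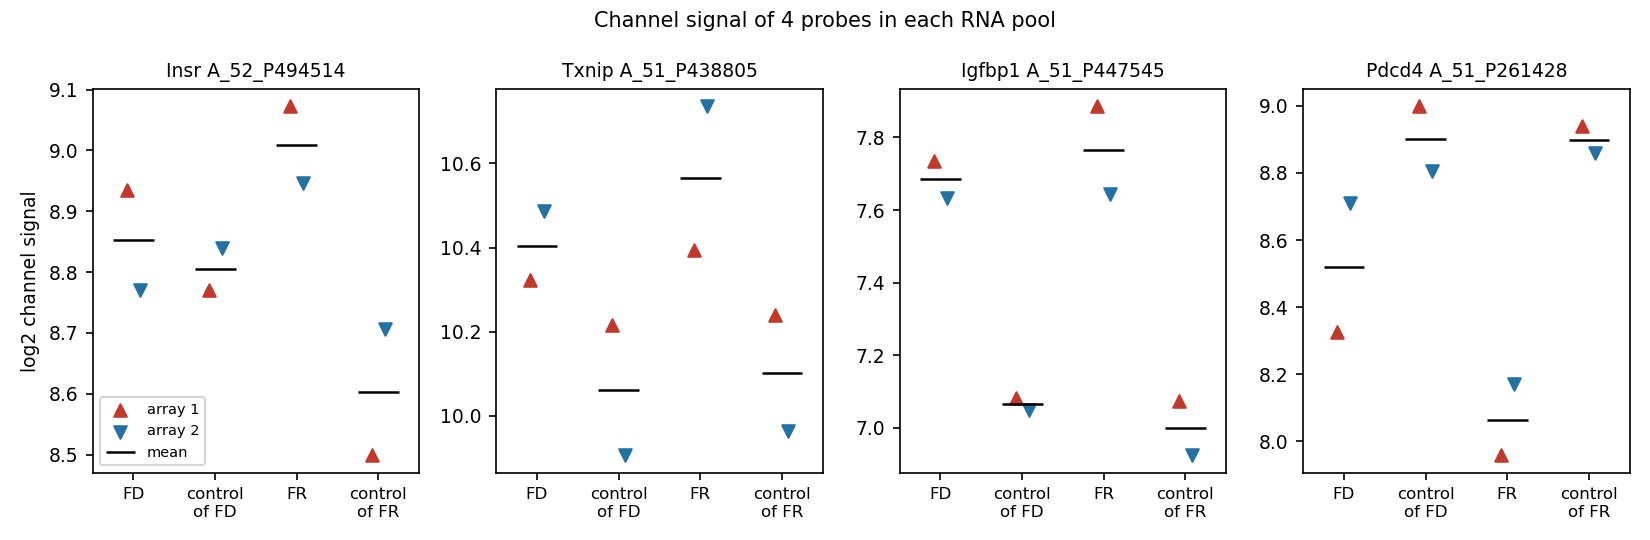
Normalised log2 signal (vertical axis) of the brighter probes of Insr and Txnip and of the list genes Igfbp1 and Pdcd4, in the FD pool, the control of FD, the FR pool and the control of FR, with one point per array and a line at the mean. For Txnip and Igfbp1 each treated pool lies above its control on both arrays, and for Insr this holds in FR but not in FD.

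For most member probes the difference between dye orientations had the same sign in both groups. A true change enters both arrays alike once the swap is turned, and drops out of this difference. The difference of array 1 minus array 2, divided by 2, thus holds the dye offset together with the scatter of single arrays. It was -0.30 in FD and -0.43 in FR for Akt2 A_52_P2977, -0.22 and -0.28 for Foxo1 A_52_P453884, -0.21 and -0.16 for Mtor, -0.24 and -0.31 for Txnip A_51_P438805, and 0.12 and 0.17 for Insr A_52_P494514. Its sign was the same in FD and FR for 10 of the 12 member probes measured in both. The same share over all probes is not given here, so whether this count is usual for the arrays cannot be told. With 1 dye term shared by both groups, the scatter left in a single array had an SD of 0.10 and in a dye-swap mean 0.07 over 23387 probes. At these 5 probes the offset of a single orientation was as large as most of the ratios reported above. It was smaller at the second probes of Txnip, A_52_P420792, at 0.02 in FD and -0.02 in FR, and of Akt2, A_51_P408044, at -0.03 and -0.11.

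**Figure D3:**
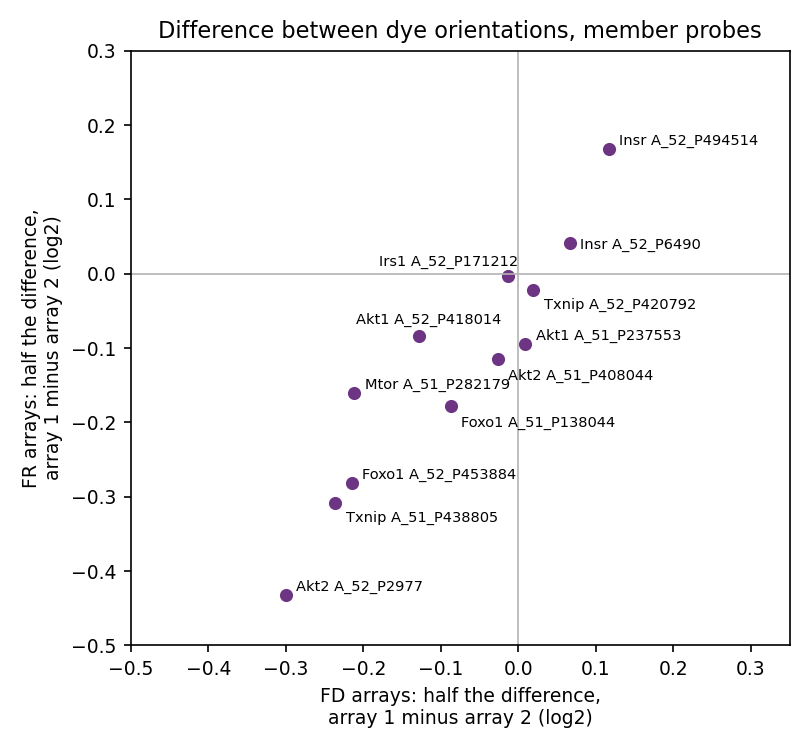
The difference of array 1 minus array 2 of the dye swap, divided by 2, on the log2 scale, in FR (vertical axis) against FD (horizontal axis) for the 12 member probes measured in both groups. Points in the lower left and upper right corners have the same sign in both groups, as for Akt2 A_52_P2977 at -0.30 and -0.43 and Insr A_52_P494514 at 0.12 and 0.17.

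The wider pathway was described through 7 lists with 148 genes, each gene read by its brightest measured probe. Of 128 genes measured in FD, 2 were at least 1.5-fold higher on both arrays, Igfbp1 and Rps6, and 0 were lower, where 0.0891% and 0.128% of 17951 genes were. Of 124 measured in FR, Igfbp1 was higher and Pdcd4 lower, where 0.582% and 0.431% of 18550 genes were. The median over the measured pathway genes was 0.01 in FD and 0.02 in FR, beside 0.00 and 0.01 over all genes. In FD 26 of 128 pathway genes were above 0 on both arrays and 33 below, where 25.5% and 23.3% of all measured genes were. In FR 41 of 124 were above 0 and 26 below, where 28.3% and 27.4% of all measured genes were; the list counts below are to be read against these shares. Among the further probes of the pathway genes, 1 of 93 passed 1.5-fold on both arrays in FD, for Arrdc4, where 0.194% of all measured probes did. In FR 2 of 84 passed, for Arrdc4 and Rps6, where 1.05% of all measured probes did. Counts this small are near these shares.

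Igfbp1, an insulin-repressed FoxO target that binds insulin-like growth factors, rose in both groups. Its log2 signal was 7.74 and 7.63 in FD, against 7.08 and 7.05 in its control, and 7.88 and 7.64 in FR, against 7.07 and 6.92 in its control. The ratios were 0.65 and 0.59 in FD, a mean of 0.62 or 1.54-fold, and 0.81 and 0.72 in FR, a mean of 0.77 or 1.70-fold, and treated and control signals did not overlap. Igfbp1 is a liver product, and the liver markers ran the same way, with Ahsg at 0.84 and 0.91 in FD and 0.45 and 0.38 in FR and Afp at 0.60 and 0.45 in FD and 0.84 and 0.60 in FR; their part in the Igfbp1 value was not tested. The FoxO target list as a whole had 26 measured genes in FD, with 6 above and 4 below 0 on both arrays and a median of 0.03, and 23 in FR, with 9 above and 5 below and a median of 0.02. Beyond Igfbp1, the members and Rictor, which is given with the mTOR complexes, Klf15, Fbxo32, Pdk4 and Pink1 lay farthest from 0. Klf15, a fasting-linked factor, gave 0.72 and -0.06 in FD and 0.80 and -0.15 in FR. The dimmer Klf15 probe averaged 0.06 in FD and 0.00 in FR. Fbxo32, a ubiquitin ligase of muscle wasting, gave 0.39 and 0.64 in FR. Pdk4, which restrains glucose oxidation, gave 0.22 and 0.36 in FR, and the mitophagy kinase Pink1 gave -0.08 and 0.59 in FD.

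Among mTOR effectors 18 genes were measured in FD, with 6 above and 4 below 0 on both arrays and a median of 0.06, and 17 in FR, with 7 above and 4 below and a median of 0.02. Pdcd4, an inhibitor of translation initiation, fell in FR. Its log2 signal was 7.96 and 8.17 in FR, against 8.94 and 8.86 in the control of FR, with ratios of -0.98 and -0.69, and in FD it was 8.33 and 8.71, against 8.998 and 8.81, with ratios of -0.67 and -0.09 that did not pass. Rps6, a ribosomal protein and the classical S6 kinase substrate, passed in FD at 0.65 and 0.89 through the probe A_52_P531325, which stood at 1.45 and 1.49 in FR. The brighter Rps6 probe, A_51_P344734, gave 0.17 and -0.13 in FR and was marked as an outlier in FD, where with marked spots kept it gave 0.33 and -0.31; the probes thus disagree and the Rps6 call is lost with such spots kept. Eif4ebp3, a translation repressor, lay at 0.42 and 0.40 in FD and at 0.28 and 0.58 in FR, and its second probe averaged 0.32 and 0.38. Eif4ebp2 averaged -0.33 in FD. In FR the initiation factor Eif4b averaged -0.48, with its other probes at -0.02 and -0.04, and the elongation factor kinase Eef2k averaged 0.43.

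The list of mTOR complexes and their regulators had 28 measured genes in FD, with 7 above and 7 below 0 on both arrays and a median of 0.02, and 27 in FR, with 10 above and 5 below and a median of 0.00. The farthest in FD were Sesn2, a stress-induced mTOR inhibitor, at a mean of 0.39, and the GTPase Rhebl1 at 0.30. The complex 2 subunit Rictor, at -0.30, and the AMP kinase subunit Prkab1, at 0.24, followed in FD. The other Sesn2 probe averaged 0.05, that of Rhebl1 0.24, and the other measured Rictor probes 0.02, -0.11 and 0.06. In FR they were the AMP kinase subunits Prkag2, at -0.41 and -0.85, and Prkaa1, at 0.00 and 0.54 with its other probe at a mean of -0.16. The lysosomal anchor Lamtor1, at a mean of 0.28, and the amino acid sensing GTPase Rragc, at 0.24, followed in FR. The Lamtor1 value came from a dim probe. Its brighter probe, marked as an outlier on array 1 of FR, averaged 0.15 with marked spots kept. None of these passed 1.5-fold on both arrays.

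Among receptors and adaptors 15 genes were measured in each group, with 3 above and 5 below 0 on both arrays and a median of 0.01 in FD, and 5 above and 5 below with a median of -0.02 in FR. Igf1r, the receptor for insulin-like growth factors, gave -0.39 and -0.29 in FD at its brightest probe, with means of -0.24, -0.20 and -0.05 at its others. Also in FD, Enpp1, an inhibitor of the insulin receptor, averaged 0.19, and the adaptors Sh2b1 and Shc1 averaged -0.15 and -0.10. In FR the inhibitory adaptor Grb14 averaged -0.36, the cytokine-induced inhibitor Socs3 0.29, Enpp1 0.22 and Sh2b1 -0.20. The other Enpp1 probe averaged 0.15 in FD and -0.03 in FR.

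For PI3 kinase and Akt 22 genes were measured in each group, with 4 above and 6 below 0 on both arrays in FD, at a median of -0.01, and 5 above and 6 below in FR, at a median of 0.00. Gsk3b, the glycogen synthase kinase that Akt inhibits, averaged -0.37 in FD. The regulatory subunit Pik3r1 averaged -0.23 in FD, with its other probes at -0.02, -0.12 and 0.12. The Akt-binding pseudokinase Trib3 averaged 0.25 in FD, with its other probe at 0.05. Sgk1, a kinase related to Akt, averaged 0.22 in FD and 0.24 in FR. In FR the regulatory subunit Pik3r3 gave 0.71 and 0.36, with its other probes at 0.06 and 0.05. The catalytic subunit Pik3cd averaged -0.32 in FR, with its other probe at 0.03, and the lipid phosphatase Inppl1 averaged -0.24.

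FoxO factors and their regulators had 10 measured genes in FD, with 0 above and 3 below 0 on both arrays and a median of -0.05, and 12 in FR, with 4 above and 1 below and a median of 0.04. The values farthest from 0 were small, with the nuclear exporter Xpo1 at -0.17 in both groups. The kinase Stk4 gave -0.31 and 0.03 in FD, a mean of -0.14, with its other probes at -0.14, -0.14 and -0.19. The deacetylase Sirt1 averaged -0.13 in FD, where the other Sirt1 probe averaged 0.06. In FR the scaffold protein Ywhaz gave 0.01 and 0.40, a mean of 0.21, and its relative Ywhab 0.04 and -0.29, a mean of -0.12. The deubiquitinase Usp7 averaged -0.06 in FD and 0.15 in FR, with its other probe at 0.10 and 0.14.

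Txnip partners and glucose-sensing factors had 15 measured genes in FD, with 2 above and 5 below 0 on both arrays and a median of -0.03, and 14 in FR, with 4 above and 1 below and a median of 0.04. Arrdc4, an arrestin-fold relative of Txnip and a known target of the same glucose-sensing factors, was read differently by its probes and is named after its values were seen. Its less bright probe, A_51_P482908, had log2 signals of 9.23 and 9.26 in FD, against 8.40 and 8.39 in its control, and of 10.04 and 10.10 in FR, against 8.29 and 8.21 in its control. The ratios were 0.83 and 0.86 in FD, a mean of 0.85 or 1.80-fold, and 1.75 and 1.90 in FR, a mean of 1.82 or 3.54-fold, with treated and control signals apart in both groups. The brighter probe, A_51_P111612, which stands for the gene in the counts above, gave 0.08 and -0.05 in FD and 0.14 and -0.13 in FR, and which of the probes reads the main transcript was not tested.

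Mlx, the partner of the glucose-sensing factors, gave -0.48 and -0.36 in FR, with its other probe at a mean of 0.10. In FD Mlx averaged -0.14, with its other probe at 0.04. The sensing factor Mlxip averaged 0.21 in FR. The insulin-responsive glucose transporter Slc2a4 gave 0.45 and 0.33 in FR. Slc2a1, the transporter of the blood-brain barrier, had opposite signs on the arrays, at 0.40 and -0.14 in FD and 0.45 and -0.13 in FR. Its means were 0.13 and 0.16. Hexokinase Hk2 gave 0.02 and -0.31 in FD, a mean of -0.15, and thioredoxin reductase Txnrd1 0.00 and -0.21, a mean of -0.10.

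**Figure D4:**
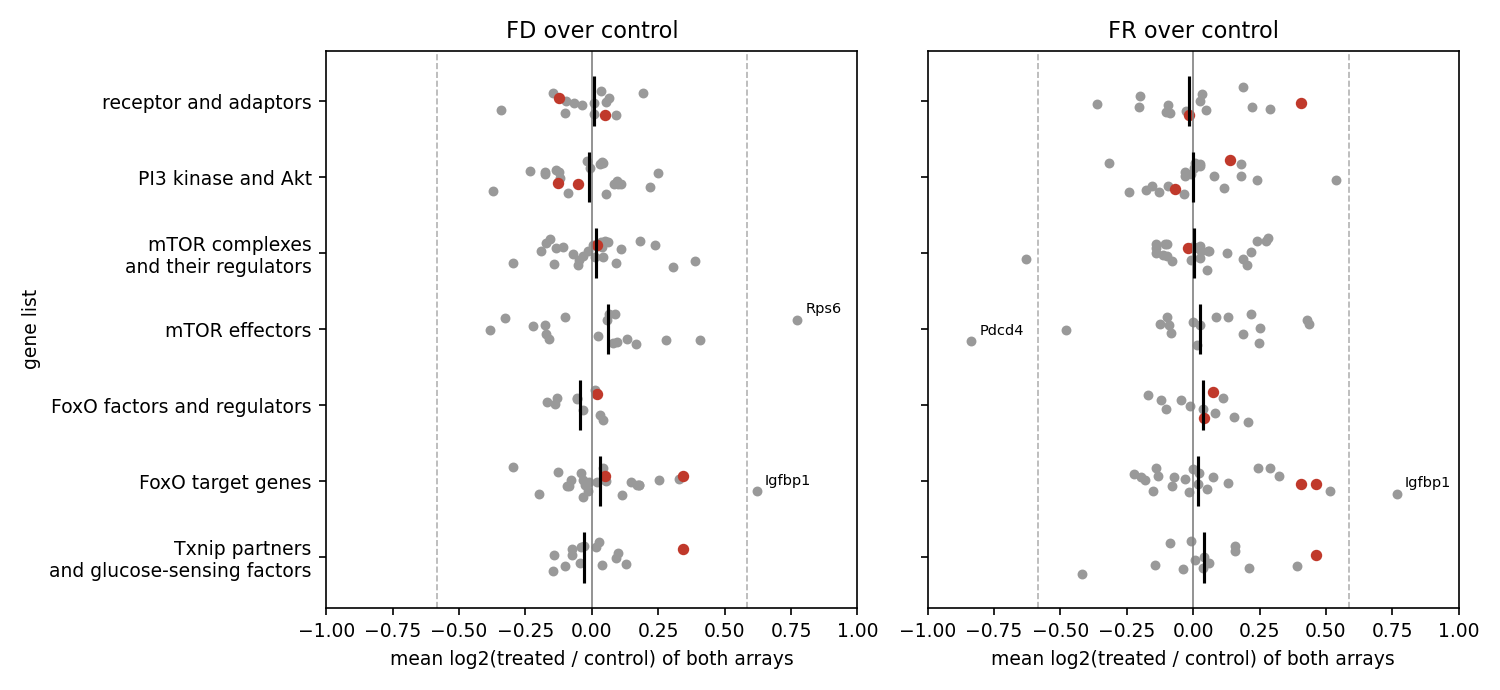
Mean log2 ratio over both arrays (horizontal axis) of the measured genes of each of the 7 pathway lists, with FD in the left panel and FR in the right, one point per gene, members in red, a black bar at the list median and dashed lines at 1.5-fold. List medians lie between -0.05 and 0.06, and Igfbp1, Rps6 and Pdcd4 are the points that passed 1.5-fold on both arrays in at least one group.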

How the data were processed

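RNA of pooled fetal brains was hybridised to 4 two-colour Agilent arrays of 1 design. The deposited scanner files were made with Agilent Feature Extraction 9.5.3.1, per the submitters' processing notes, and hold, per the file headers, the mean and background intensity of each spot in both channels, not yet normalised. They further give the software's own background-subtracted and dye-normalised red-to-green ratio in log10, per the file headers, and other columns with flags for outliers and for signal well above background, as deposited. The authors' deposited value table matched that ratio as log2 of treated over control, to within 5.5e-06 on spots well above background; its column medians were -0.03, 0.03, -0.03 and 0.01, its scale and direction thereby being known, and how dim spots were treated is unknown.

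Intensities were corrected with normexp (offset 50) and loess-normalised within arrays (R 4.3.3, limma 3.58.1). Outlier spots were dropped, and control spots were given weight 0. Array 2 of FR held a bright patch with local background up to 65319, so spots with background over 2 times the array median were left out first, 3 on array 1 of FD and 44 on array 2 of FR. Spots of a probe were averaged, and swapped arrays were turned to log2(treated/control). Channel signals were scaled with Aquantile, and the arrays' small number limits the precision. The steps were tested on simulated data.

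The members and lists were chosen with earlier results of these data known. All member probes are named. Of each of the 7 pathway lists, up to 4 measured genes per comparison by absolute mean, and every gene past 1.5-fold, are named; the 9 marker lists are given by their levels. No p-value is given, since each comparison has 1 pool per condition. Alternatives covered the background correction, normalisation, dim-probe filter, fold limit, authors' table and single arrays.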

Additional observations from a re-analysis of the deposited data

Results flagged for a closer look

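Among the genes named by rule, 1 member probe and 4 list genes, each read by the same probe in both groups, had both arrays of FD below 0 and both arrays of FR above it. Over all 23387 probes measured in both groups, 3.18% had this pattern and 3.13% its mirror image. The list genes were named for large means in these same data, so these shares are no fair background for their count. Akt1 at its 10-spot probe A_51_P237553 gave -0.04 and -0.06 in FD and 0.04 and 0.23 in FR, so that FD minus FR was -0.19, and the FD mean turned to 0.02 with outlier-marked spots kept. Gsk3b differed most, with -0.18 and -0.56 in FD and 0.21 and 0.15 in FR, a difference of -0.55, while its second probe averaged -0.24 in FD and -0.10 in FR. Lamtor1 gave -0.03 and -0.08 in FD and 0.18 and 0.39 in FR, a difference of -0.33, at a dim probe with log2 signals between 6.60 and 6.99. Its brighter probe had outlier-marked spots in both groups. With these kept it gave -0.31 and 0.12 in FD and -0.06 and 0.35 in FR, without this pattern. Mlxip gave -0.02 and -0.07 in FD and 0.13 and 0.29 in FR, a difference of -0.25. Usp7 gave -0.04 and -0.08 in FD and 0.21 and 0.10 in FR, a difference of -0.21, while its second probe gave 0.16 and 0.03 in FD and 0.33 and -0.04 in FR. None of these differences was tested, because each group is 1 pool on a dye swap.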

How the results depend on the processing

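Across normalisations, background corrections, the authors' table and outlier-marked spots kept, which was chosen after seeing the data, the member probes gave 234 values, of which 226 moved by less than 1 SD of the dye-swap scatter and 205 kept their sign. These 234 values overlap, so the counts overstate how many separate checks were made. The authors' table repeats the scanner software's ratio, and keeping marked spots changes nothing at probes without them. Fitting normexp on all spots moved the member values almost only on array 2 of FR. The count of member probes past 1.5-fold stayed at 0 in FD under each alternative run, including 1.2-fold and no filter on dim probes. In FR it was between 0 and 1 on single arrays, the 1 being Txnip on array 2, and 0 otherwise. Single arrays gave 78 member values, of which 64 stayed within 1 SD and 59 kept their sign. The list medians gave 126 values, 98 of them with the same sign. With median centring the FD medians were 0.052 for receptors and adaptors, 0.040 for PI3 kinase and Akt, 0.086 for mTOR complexes, 0.090 for FoxO targets and 0.057 for Txnip partners, and the FR medians -0.036 for receptors and adaptors and -0.026 for mTOR effectors. With outlier-marked spots kept they were -0.027 for receptors and adaptors, -0.023 for mTOR effectors and 0.016 for Txnip partners in FD and 0.0048 for receptors and adaptors in FR. The FR receptor median was 0.0069 with normexp on all spots, 0.011 without background correction and 0.0046 with the median over probes, which put the FR FoxO factor median at -0.023. On single arrays, the lower value given before the higher, the FD medians ran from -0.058 to -0.023 for receptors, -0.060 to 0.027 for mTOR complexes, -0.18 to -0.023 for FoxO factors and -0.031 to 0.034 for FoxO targets, and the FR medians from -0.014 to 0.011 for receptors, 0.051 to 0.12 for mTOR effectors, 0.0061 to 0.070 for FoxO targets and 0.0095 to 0.13 for Txnip partners. The cause was not tested in any of these cases. No paired analysis was possible because the replicate numbers mark the dye orientation of 1 pair of pools, and no test was made. Dim probes limit Foxo3 and the second Insr and Txnip probes, which lie near background.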
